A study of Mus musculus with 141 samples.

Results

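Shores are the stretches of sparser CpGs that flank CpG-dense sequence. Here a shore position was an autosomal cytosine of the single-cell methylation table with at most 4 positions of the table within 100 bp either side, itself counted, and lying 200 to 2000 bp from the nearest dense position. A dense position had at least 20 positions of the table within 100 bp either side. This gave 29645 shore positions of 1370938 autosomal positions (2.16%), or of 1416034 positions on all chromosomes. Levels were read at the 6958 shore positions that had a call in at least 5 cells of each arm. These were 23.5% of the shore positions, against 29.7% of all autosomal positions. The rule used positions and coverage and no methylation value.

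The cells were IdhR132H mouse glioma cells. The labels name no other allele, strain or donor animal. Both arms carry the mutation of IDH, which makes the enzyme produce 2-hydroxyglutarate, an inhibitor of the TET enzymes that start the removal of DNA methylation. The 67 AG-881 cells came from a culture grown in 1 µM AG-881 (vorasidenib, an inhibitor of mutant IDH) for over 2 weeks, and the 74 DMSO cells from a culture kept as long with the vehicle alone. Live single cells were sorted into multiwell plates and their DNA was cut with MspI for reduced representation bisulfite sequencing (scRRBS), which favours CpG-rich fragments; the transcriptomes made from the same cells were not analysed here. Cell identity was not checked against marker expression, since only methylation was used. The labels name 1 plate and no separate culture per arm, so each arm is 1 sample. Differences below are therefore not checked over replicates and carry no p-value. Libraries were made in pools, pools 1 to 4 with 14, 18, 19 and 16 AG-881 cells and pools 5 to 8 with 21, 14, 19 and 20 DMSO cells. Since every pool is of 1 arm, an effect of the pool and one of the arm cannot be told apart. A cell had a median of 940 calls in shores with AG-881 (range 242 to 1849) and 696.5 with DMSO (range 92 to 1701).

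In mammalian genomes most CpGs are methylated, and CpG islands, often at promoters, are kept free of methylation. Shores are the border between these states, and they are known as places where methylation varies between tissues and between normal and tumour cells. De novo methyltransferases add methylation, and TET enzymes oxidise it as the first step of its removal.

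The word sparse refers to the table and not to the genome, as promoter sequences show. The table had a position at 40.6% of the CpGs in 31365 RefSeq promoter windows (GRCm38.p6, the same sequence as mm10, 250 bases before to 50 after a start), and 98.4% of its positions there lay on a CpG. In the 838 windows that held a shore position and no dense position the median was 16 CpGs per window, between the 33 of the 4275 windows with a dense position and the 10 of the 3677 windows whose sparse positions lay beyond 2000 bp. At the 149 called shore positions with 100 bases of window sequence on each side, the median was 3 table positions but 10 CpGs of sequence (range 3 to 23). The following 250 bases before a start show this, with CpGs in capitals. The first 3 are the promoters with the most shore calls among the 127 in which all called positions were shore positions, and the last is the promoter inside the dense block next to the Rnf44 shore described further on.
Cep41: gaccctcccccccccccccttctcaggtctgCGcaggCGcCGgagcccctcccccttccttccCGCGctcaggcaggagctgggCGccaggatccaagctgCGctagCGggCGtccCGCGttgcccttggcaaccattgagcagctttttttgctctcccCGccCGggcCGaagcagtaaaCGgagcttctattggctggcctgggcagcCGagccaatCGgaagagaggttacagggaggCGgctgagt
Rarg: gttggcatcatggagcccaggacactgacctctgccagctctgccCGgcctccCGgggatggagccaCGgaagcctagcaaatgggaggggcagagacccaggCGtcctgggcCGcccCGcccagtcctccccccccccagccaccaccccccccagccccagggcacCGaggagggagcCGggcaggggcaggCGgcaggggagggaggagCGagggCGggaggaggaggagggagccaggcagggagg
Srgap2: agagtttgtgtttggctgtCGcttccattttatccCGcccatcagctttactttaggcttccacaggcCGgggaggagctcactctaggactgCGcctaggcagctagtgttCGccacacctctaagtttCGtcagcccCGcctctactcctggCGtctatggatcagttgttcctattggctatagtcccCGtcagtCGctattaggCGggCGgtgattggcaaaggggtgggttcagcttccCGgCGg
Rnf44: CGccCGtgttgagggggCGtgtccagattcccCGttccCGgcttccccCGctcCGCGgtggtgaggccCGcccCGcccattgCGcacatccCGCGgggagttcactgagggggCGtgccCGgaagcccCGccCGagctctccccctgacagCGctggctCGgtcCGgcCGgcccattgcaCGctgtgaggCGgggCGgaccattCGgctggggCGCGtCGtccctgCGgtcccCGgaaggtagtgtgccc

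The promoter of Cep41, a centrosomal protein gene, lies at chr6:30693750-30693999 on the minus strand and holds 18 CpGs. Its 5 called positions, 285 to 404 bp from dense sequence, had 0% methylation in 56 AG-881 calls and 48 DMSO calls, which allows levels of up to 5.36% and 6.25%. The promoter of Rarg, a retinoic acid receptor gene, lies at chr15:102257523-102257772 on the minus strand with 11 CpGs. It had 13% with AG-881 (54 calls, interval 5.37 to 24.9) and 12.8% with DMSO (47 calls, interval 4.83 to 25.7). Srgap2, a regulator of neuronal migration, at chr1:131527362-131527611 on the minus strand, holds 14 CpGs. It had 0% of 42 calls in either arm, which allows up to 7.14%, and its positions lay 854 to 1031 bp out. The dense promoter of Rnf44, at chr13:54693961-54694210 on the minus strand, holds 30 CpGs and had 0% in 350 and 305 calls, which allows up to 0.857% and 0.984%. Intervals here and below are exact 95% binomial (Clopper-Pearson) intervals. They cover counting error only and treat calls as independent; calls of 1 cell in 1 shore share a source.

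Methylation climbed steeply across the shore in both arms. The level at dense positions was 5.25% (AG-881) and 6.22% (DMSO), and at sparse positions nearer than 200 bp 9.30% and 10.5%. Within the shore the DMSO level was 13.6% at 200 to 400 bp, 20.04% at 400 to 600 bp, 26.4% at 600 to 800 bp and 31.4% at 800 to 1000 bp. It continued to 43.6%, 49.7%, 58.2%, 58.6% and 62.1% in the 200 bp bins from 1000 to 2000 bp. Sparse positions beyond 2000 bp stood at 67.1% in DMSO (661086 calls), and those up to 3000 bp out at 64.7% (interval 63.7 to 65.8), which overlapped the interval of the last shore bin (59.7 to 64.4). The steps between neighbouring bins exceeded the counting intervals except from 1400 to 1600 bp to 1600 to 1800 bp (58.2%, interval 56.2 to 60.2, against 58.6%, interval 56.5 to 60.7) and from there to the last bin (62.1%, interval 59.7 to 64.4). AG-881 cells had the same order of bins, with 12.8%, 18.7%, 24%, 29.6%, 40.9%, 46.1%, 55.3%, 55.7% and 59.9%.

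**Figure D1:**
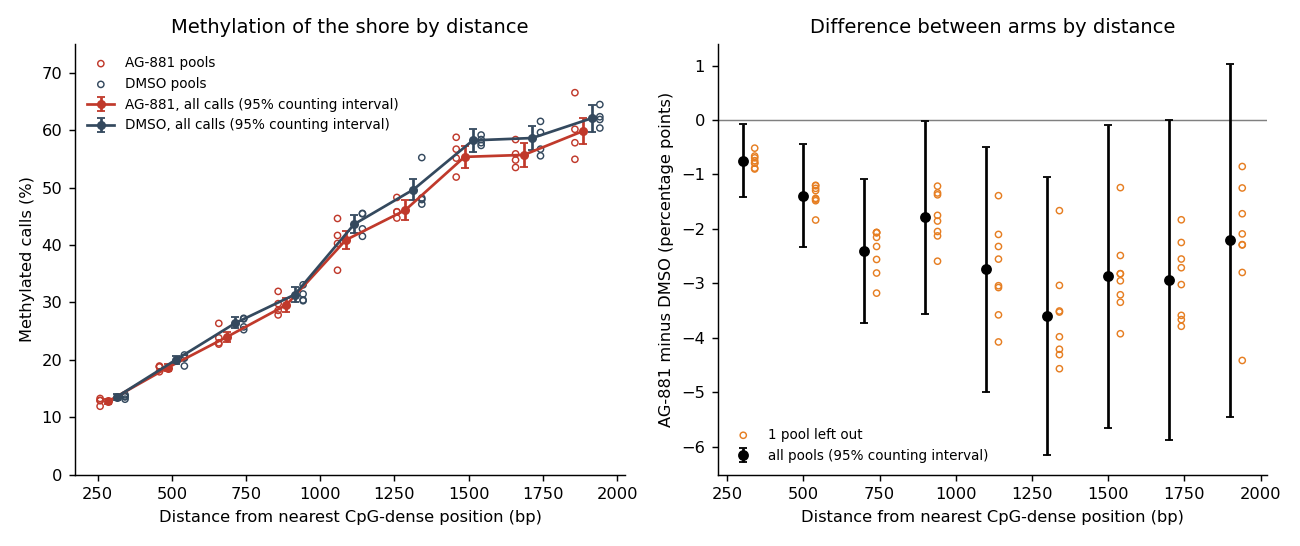
The left panel plots the share of methylated calls (percent) against distance from the nearest dense position (bp) in 9 bins, with filled points for each arm over all calls, bars for 95% counting intervals and open circles for the 4 library pools of each arm. The right panel plots AG-881 minus DMSO in percentage points, with open circles for the difference when 1 pool is left out; the level rises from 13.6% to 62.1% in DMSO and all 9 differences lie below 0.

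Values were also read just inside and just outside the distance limits and the limit on sparse positions. Sparse positions at 100 to 200 bp had 9.41% and 10.6%, and those at 200 to 300 bp had 11.9% and 12.6%. At the outer edge, positions at 1900 to 2000 bp had 54.3% and 56.7%, and those at 2000 to 2100 bp had 54.9% and 58.1%. Positions with 4 positions of the table within 100 bp, itself counted, had 20.7% and 22.1%, and those at the same distances with 5 had 17.8% and 19.6%.

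Shore methylation was lower in AG-881 cells than in DMSO cells. The AG-881 level was 25.3% (interval 24.9 to 25.6) over 62966 calls, and the DMSO level was 26.9% (interval 26.5 to 27.2) over 58523 calls. The difference was -1.62 points (interval -2.11 to -1.12), which is -6.02% of the DMSO level. AG-881 pools 1 to 4 had 24.1%, 24.9%, 26.8% and 25.1%, and DMSO pools 5 to 8 had 26.7%, 26.8%, 27.1% and 26.9%. Pool 3 was the highest of its arm and lay within the DMSO pools, whereas the other AG-881 pools lay below all of them. Leaving out 1 pool moved the difference between -2.12 points (without pool 3) and -1.31 points (without pool 1), and it was -1.01 points with a dense threshold of 30 positions. The same difference was -0.967 points at dense positions (5.25% and 6.22%, -15.6% of the DMSO level) and -0.527 points at sparse positions beyond 2000 bp (66.5% and 67.1%). Beyond 2000 bp it was 0.0342 points without pool 1, -1.23 without pool 3 and -0.316 without pool 8, so its sign rested on pool 1. Sparse positions up to 3000 bp out differed by -1.43 points (interval -2.86 to 0.0105), and those from there to 5000 bp by -1.98 points. The bins next beyond 5000 bp had -0.856 and -1.02 points. Positions at shore distances with 5 positions within 100 bp had -1.86 points, and all positions with 5 to 19 had -1.10 points. The intervals in these bins and in the sets with 5 and with 5 to 19 positions overlap that of the shore. A larger difference in shores than there is therefore not shown. Those at dense positions (-1.03 to -0.909) and over all sparse positions beyond 2000 bp (-0.685 to -0.369) did not overlap it, in points and for counting error only.

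Over all calls, AG-881 lay below DMSO at every distance. All 9 bins were lower with AG-881, and this was so again when any single pool was left out. The pools of the arms overlapped in every bin except that from 400 to 600 bp. In the last bin AG-881 pool 3 (66.5%) lay above all DMSO pools (60.4% to 64.5%). The differences were -0.745, -1.39, -2.41 and -1.79 points in the bins from 200 to 1000 bp, and -2.74, -3.60, -2.87, -2.94 and -2.21 points in those from 1000 to 2000 bp. Intervals of the last 2 bins (-5.87 to 0.000111 and -5.45 to 1.04) reached 0. Single pools decided the size in the outer bins: it was -1.39 points at 1000 to 1200 bp without pool 1, -1.66 at 1200 to 1400 bp without pool 7, -1.24 at 1400 to 1600 bp without pool 4 and -1.83 at 1600 to 1800 bp without pool 8. In the bin from 1800 bp it was -0.854 without pool 2, -4.41 without pool 3 and -1.25 without pool 4.

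The near part of the shore, 200 to 1000 bp, held 5365 positions and had 18.3% with AG-881 and 19.7% with DMSO. Its difference was -1.38 points (interval -1.88 to -0.880), and its pools did not overlap, with AG-881 at 17.3%, 18.2%, 19.4% and 18.2% and DMSO at 19.6%, 19.98%, 19.6% and 19.8%. The far part, 1000 to 2000 bp, held 1593 positions and had 49.9% and 52.6%, a difference of -2.67 points (interval -3.88 to -1.46). At positions called in at least 2 cells per arm the far difference was -1.23 points, beside -1.28 points in the near part. The near difference was also -0.847 points with a dense threshold of 30 positions and -2.27 points with at most 2 positions within 100 bp. In the far part pool 3, at 53.3%, lay inside the DMSO range (52% to 53.9%), and the other AG-881 pools had 48.2%, 49% and 49.1%. As a share of the DMSO level the difference was -7.01% in the near part and -5.08% in the far part. The intervals of the near and far differences overlap, so a larger difference in points in the far part is not shown.

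Single cells carried the same gradient. The near level of a cell averaged 18.2% ± 2.62 with AG-881 (SD over 67 cells) and 19.3% ± 2.85 with DMSO (SD over 74 cells). The far level averaged 49.99% ± 6.13 over the 66 AG-881 cells with at least 50 calls there and 52.4% ± 4.63 over 72 such DMSO cells. Far minus near was above 0 in every one of these cells. It averaged 31.8 points with AG-881 (lowest 19.8, highest 50.6) and 33 points with DMSO (lowest 19.6, highest 45.6). Over the whole shore the cells averaged 25% ± 3.16 and 26.4% ± 2.69, so the difference between the arms was smaller than the SD over cells of either arm.

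**Figure D2:**
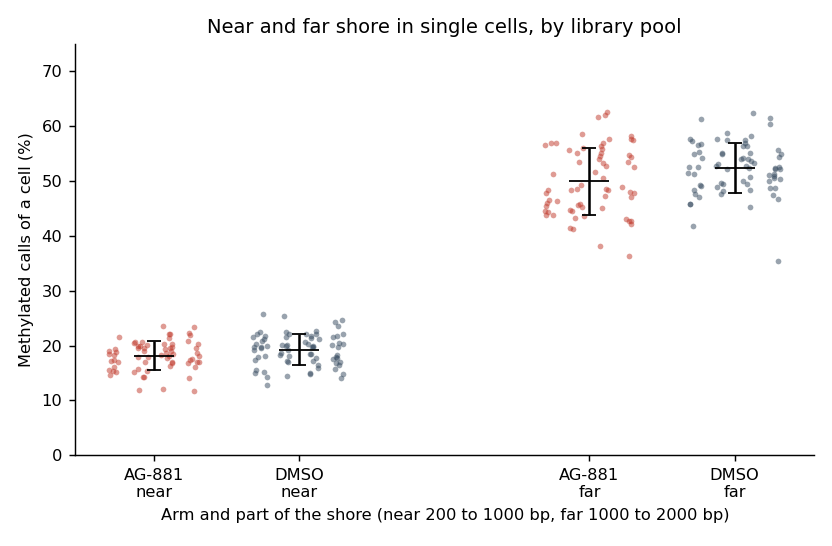
Each point is the share of methylated calls (percent) of 1 cell in the near or the far part of the shore, in 4 columns per arm for its library pools in order; the bars show the mean and SD over cells. Near levels lie between 11.7% and 25.8% and far levels between 35.4% and 62.7%, so the parts do not overlap, whereas the arms overlap widely in both.

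Along the shore, positions shifted from mostly unmethylated to mostly methylated. In DMSO, 74.8% of the 3810 positions at 200 to 600 bp had a level of 20% or less and 8.29% had 80% or more. At 1400 to 1800 bp these shares were 23.9% and 49.7% of 594 positions, against 16.4% and 55.4% of sparse positions beyond 2000 bp. Positions between 20% and 80% made up 16.9%, 24%, 27.2% and 26.4% in the successive bins of 400 bp. With AG-881 the share at 20% or less was higher in each of these bins, with 76.8% against 74.8%, 63% against 57.6%, 40.3% against 37.1% and 26.4% against 23.9%. Over the whole shore 63.7% of positions were at 20% or less with AG-881 and 60.8% with DMSO.

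Within 1 cell, calls of the same shore were often of 1 kind. Of 1390 pairs of a cell and a shore with at least 4 calls, 60.8% were unmethylated throughout with AG-881, 10.5% methylated throughout and 28.7% mixed (interval 26.3 to 31.2). For 1246 pairs with DMSO the shares were 57.4%, 12.1% and 30.5% (interval 27.9 to 33.1). Most shore positions were at 20% or less in both arms, and both strands of a CpG count separately. How many uniform pairs this gives by itself was not tested. The intervals treat pairs as independent. Where a cell had at least 2 calls on either side of 1000 bp, the border could be read in that cell. With AG-881, 27 of 104 such pairs were mostly unmethylated near and mostly methylated far (26%, interval 17.9 to 35.5), and 1 pair was the reverse. With DMSO, 23 of 94 pairs had the first pattern (24.5%, interval 16.2 to 34.4) and 0 the reverse, which allows a share of up to 3.19%.

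Shores differed with the state of their dense sequence. Dense positions less than 400 bp apart were joined into 7920 dense blocks, with a median of 26 dense positions and a median span of 193 bp, of which 3107 had a called shore position. Blocks were grouped by their own DMSO level at dense positions (at least 20 calls), which are other positions than those of the shore. Next to blocks under 10% methylated, the 4760 shore positions stood at 17.4% (AG-881) and 18.7% (DMSO). In DMSO their level climbed from 9.20% at 200 to 600 bp through 20.2% and 41.4% to 59.8% at 1500 to 2000 bp. Next to blocks of 10 to 50%, the 799 positions had 49.8% and 50.8%, and the DMSO level went from 44.9% to 61.4%. Next to blocks of 50% or more, the 333 positions had 66.8% and 69%, and the DMSO level showed no steady climb, with 70.7%, 69.4%, 61% and 76.3%. At 1500 to 2000 bp the counting intervals of the first 2 groups overlapped (58 to 61.7 and 58 to 64.7).

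**Figure D3:**
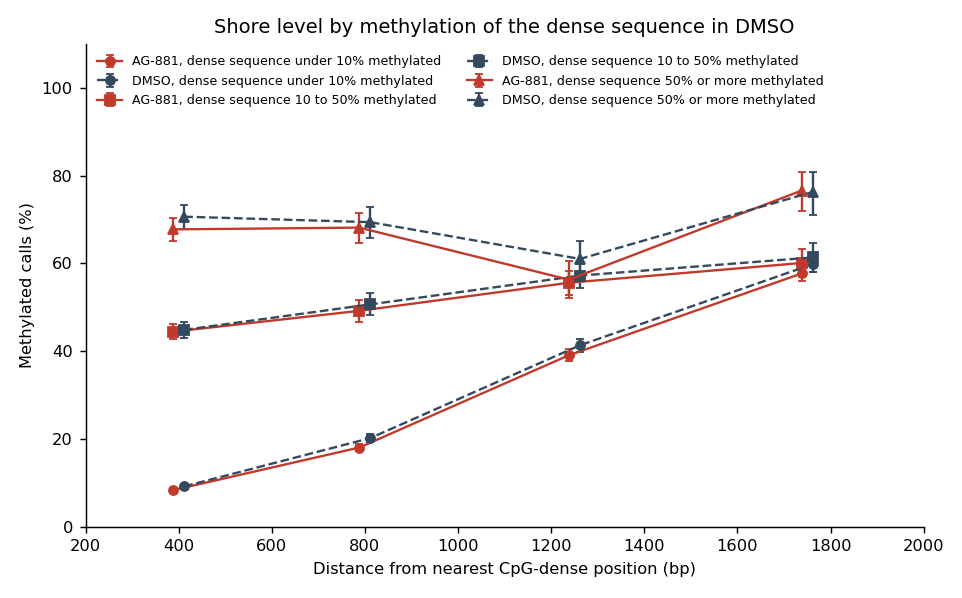
The share of methylated calls (percent) is plotted against distance from the nearest dense position (bp, centre of 4 bins) for shores whose dense block was under 10%, 10 to 50% or 50% or more methylated in DMSO, with solid lines for AG-881 and dashed lines for DMSO; bars are 95% counting intervals. The lowest group climbs from 9.20% to 59.8% in DMSO, while the highest group begins at 70.7%.

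Next to unmethylated blocks the difference between arms was -1.34 points (interval -1.86 to -0.815), and it was between -1.84 and -1.06 points with a pool left out. The pools overlapped over the whole of this group, with AG-881 at 16.6% to 18.9% and DMSO at 18.5% to 19%. In its bin from 200 to 600 bp the AG-881 pools (8.67%, 8.02%, 8.96% and 7.90%) all lay below the DMSO pools (9.16%, 9.14%, 9.37% and 9.12%). In all its bins further out the pools overlapped. Next to blocks of 10 to 50% the difference was -0.976 points with an interval that included 0 (-2.67 to 0.723), and it turned to 0.369 points without pool 1. Without pool 3 it was -2.24, without pool 5 -0.482 and without pool 7 -1.50 points. Next to blocks of 50% or more it was -2.20 points (interval -4.69 to 0.295), and -1.25 points without pool 4. Shores of blocks with fewer than 20 DMSO calls had 31.1% and 34.3%, a difference of -3.10 points (interval -4.48 to -1.72) with pools that did not overlap (28.4% to 32.6% against 33% to 36.7%).

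Small dense blocks had the larger difference in their shores. With fewer than 10 dense positions in the block, shores had 24.2% and 26.9%, a difference of -2.69 points (interval -3.81 to -1.58), and the AG-881 pools (22.8% to 25.4%) lay below the DMSO pools (26.1% to 27.7%). With 10 to 49 dense positions they had 24.9% and 26.7% (-1.85 points, interval -2.51 to -1.19). With 50 or more they had 27.1% and 27.3% (-0.224 points, interval -1.25 to 0.796), and the sign turned without pool 1 (0.161), pool 2 (0.112) or pool 7 (0.303). The last value was also -0.946 without pool 3, -0.737 without pool 8, -0.388 without pool 5 and -0.102 without pool 6. The intervals of the smallest and the largest blocks did not overlap. Unlike the comparison by state, this grouping was added after the distance profile had been seen.

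At equal density in the table, shores as a whole were less methylated than sparse positions further out. Shore positions with 1, 2, 3 and 4 positions within 100 bp had 37.1%, 31.7%, 24.6% and 22.1% in DMSO. Sparse positions beyond 2000 bp with the same numbers had 64.4%, 69.1%, 68.5% and 66%. The order by density was not the same in all parts of the shore: in the innermost of 4 equal stretches the DMSO levels were 20.9%, 20.1%, 15.6% and 14.6%, and in the outermost 66.6%, 69.6%, 56.7% and 48.5%. In that outermost stretch, shore positions with 1 and 2 positions were thus not below those beyond 2000 bp, while those with 3 and 4 were. Over the whole shore the arms differed by -2.03, -2.07, -1.15 and -1.40 points in the groups with 1, 2, 3 and 4 positions, and by 0.127, -0.613, -1.09 and -0.589 points beyond. In the group with 3 positions the shore difference was -0.704 points without pool 7.

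Shores either side of a transcription start had different outer levels. A dense block with a RefSeq start within 200 bp has an upstream side and a downstream side when its starts are on 1 strand. Near the block, at 200 to 600 bp, the DMSO level was 16% upstream (872 positions, interval 15.2 to 16.9) and 13.1% downstream (1149 positions, interval 12.4 to 13.7). Further out the order was the reverse: at 1500 to 2000 bp it was 53.5% upstream (138 positions of 85 blocks, interval 50.5 to 56.5) and 68.9% downstream (157 positions of 100 blocks, interval 66.3 to 71.5). DMSO pools 5 to 8 had 52.6%, 52.5%, 52.6% and 56.5% upstream and 69.6%, 67.6%, 70.5% and 67.8% downstream, without overlap. AG-881 had 54% and 66.3% there, with pools of 52.5% to 56.2% and 59.4% to 71.7%.

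**Figure D4:**
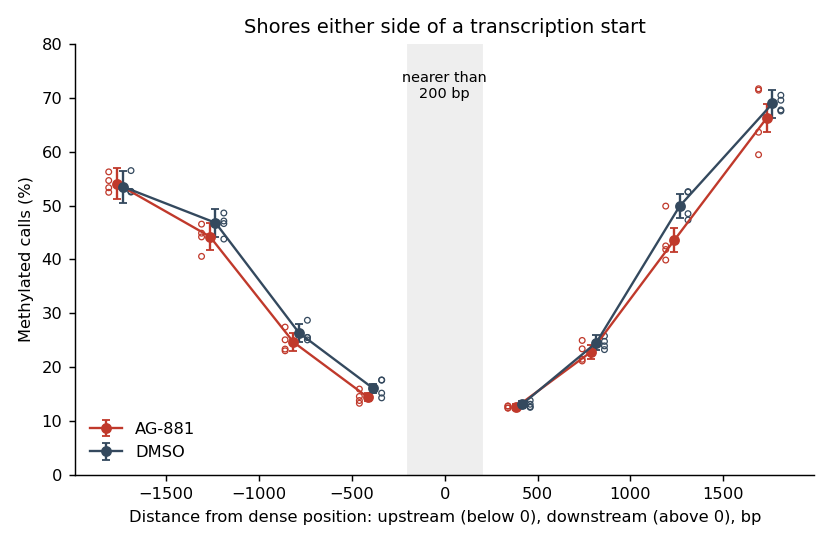
The share of methylated calls (percent) is plotted against distance from the nearest dense position (bp), upstream of a transcription start to the left and downstream to the right; filled points with 95% counting intervals are the arms and open circles their library pools. The downstream side reaches 68.9% in DMSO at 1500 to 2000 bp and the upstream side 53.5%.

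The arms differed by a similar amount on both sides of a start, -1.70 points upstream (23.3% and 25%) and -1.69 points downstream (22.2% and 23.9%). The downstream bin from 1000 to 1500 bp stood out with 43.5% and 49.9%, a difference of -6.38 points (interval -9.55 to -3.19) that was between -8.43 and -5.18 points with a pool left out. In that bin AG-881 pools had 41.8%, 39.9%, 49.9% and 42.5% and DMSO pools 47.3%, 52.6%, 52.5% and 48.5%, so only pool 3 overlapped. The upstream bin at the same distance had -2.56 points (interval -6.15 to 1.03), and the intervals of the upstream and downstream differences overlap. Shores of blocks with starts on both strands had 18.6% and 19% (-0.345 points, interval -2.01 to 1.32), with 0.624 points without pool 7 and -1.50 without pool 8. It was also nearer to 0 without pool 1 (-0.224), pool 4 (-0.214) and pool 5 (-0.0771). Shores of blocks without a start had 29.4% and 31.1% (-1.77 points, interval -2.56 to -0.975). Of these, positions inside genes had 28.2% and 30.3% (-2.17 points) and positions outside genes 32% and 32.9%. The latter difference, -0.896 points with an interval that included 0 (-2.33 to 0.542), was -0.347 without pool 2, -0.427 without pool 6, -0.576 without pool 1, -1.41 without pool 3 and -1.46 without pool 8.

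Few single shores were covered deeply enough to be judged. A shore as a unit was all called positions on 1 side of 1 block. Of 3553 such shores 60 had at least 50 calls and 10 cells in each arm, and 41 of them were lower, 14 higher and 5 equal with AG-881 (68.3% lower, median -1.68 points). At the same depth 2128 of 4798 dense blocks were lower (44.4%), 1277 higher and 1393 equal. Among 502 windows of 2 kb with sparse positions beyond 2000 bp, 237 were lower (47.2%), 240 higher and 25 equal. Both of these medians were 0 points. A shore was called when it differed by at least 10 points and every AG-881 pool lay on the same side of every DMSO pool, over at least 3 pools of 10 calls in each arm. Of the 52 shores with enough pools 1 was called lower (1.92%) and 0 higher (0%). By the same rule 0.453% of 4637 dense blocks were lower and 0.173% higher. Of 447 windows of 2 kb with sparse positions beyond 2000 bp 1.34% were lower and 1.34% higher. The share of 1.92% rests on 1 shore and is near that of the windows. This call was lost without pool 4, 5, 6, 7 or 8. Without any of these pools the shore had fewer than 50 calls in 1 arm and was not judged. Those losses therefore say nothing of its difference. The call was also lost at positions called in 10 cells per arm, with a dense threshold of 30 positions and with at most 2 positions within 100 bp. In these alternatives 20, 19 and 2 shores had enough pools. At 10 cells the shore kept only its position at 780 bp, with 10 calls in each arm, and was not judged. No called shore reached the 100 calls and 15 cells per arm set for naming, so the shores named below were chosen after their values were seen, other than those of Sox4, Glul and Pitx1 from the gene lists.

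The called shore lies upstream of Rnf44, which encodes a RING finger protein, beside the dense block at chr13:54693676-54694364 (65 dense positions). Its 7 positions, 478 to 1253 bp out, had 49.3% with AG-881 (69 calls from 29 cells, interval 37 to 61.6) and 72.7% with DMSO (55 calls from 25 cells, interval 59 to 83.9). AG-881 pools had 40%, 43.8%, 53.3% and 56.5%, and DMSO pools 76.5%, 72.7%, 73.3% and 66.7%. The difference was -23.5 points (interval -40.01 to -5.04), and -18.6 points as a mean over positions. At 478 bp the levels were 0% (9 calls, which allow up to 33.3%) and 50%, at 498 bp 33.3% and 50%, at 761 bp 77.8% and 100%, at 811 bp 55.6% and 60%, and at 875 bp 13.3% and 50%. The positions at 780 bp (90%) and 1253 bp (100%) were equal, and each of the 7 rests on 5 to 15 calls per arm. The dense promoter sequence of Rnf44 printed above was unmethylated in both arms, so the shore and its block were in different states.

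**Figure D5:**
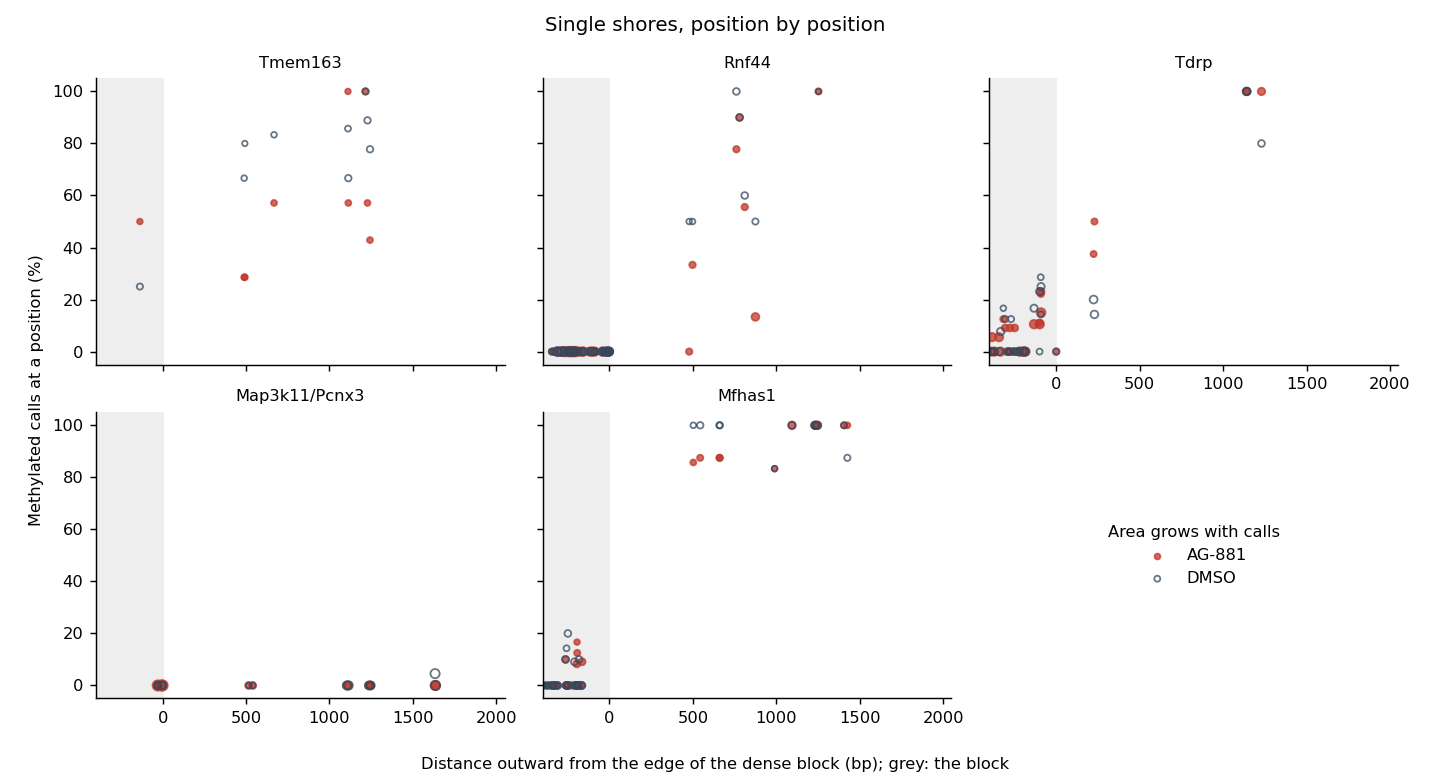
Each point is the share of methylated calls (percent) at 1 position against its distance outward from the edge of the dense block (bp; dense positions of the block lie at or below 0, shaded), filled for AG-881 and open for DMSO, with an area that grows with the number of calls. Of the 60 measured shores, Tmem163 and Rnf44 have the largest differences downward and Tdrp the largest upward; those of Map3k11/Pcnx3 and Mfhas1 have at least 100 calls in each arm and lie near 0% and 100%.

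Other measured shores at the ends of the range were not called. The shore of Tmem163, a zinc-binding membrane protein gene, at the block chr1:127677516-127677652, had 58.2% with AG-881 and 81.7% with DMSO (-23.5 points, interval -40.1 to -5.60). Its AG-881 pools (61.5%, 71.4%, 50% and 40%) overlapped its DMSO pools (94.4%, 61.5%, 72.7% and 88.9%). In the other direction, the shore of Tdrp, a testis development gene, at chr8:13974235-13974763, had 82.4% and 60.6% (21.7 points, interval 4.01 to 37.5). Its AG-881 pools (100%, 86.7%, 71.4% and 76.2%) lay above its DMSO pools (55.6%, 37.5%, 68.4% and 66.7%), but too few of these pools had 10 calls. The mean over its 5 positions was 77.5% against 62.9% (14.6 points), and its 2 nearest positions had 8 calls each with AG-881 but 14 and 15 with DMSO. Next in order on the lower side were the shores of Dxo and Stk19 (51.9% and 67.2%), of the growth factor gene Fgf3 (26% and 39.7%), of Jmjd8 and Stub1 (55.4% and 68.6%), of Sox4 (20% and 32.2%) and of the zinc finger gene Patz1 (19.7% and 31.6%), all with intervals of the difference that included 0.

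Of the 3 shores with at least 100 calls in each arm, 2 sat at the extremes in both arms. The shore of Map3k11, a kinase gene, and Pcnx3, with 9 positions 516 to 1636 bp from dense sequence, had 0% with AG-881, which allows up to 2.13%, and 0.769% of 130 calls with DMSO. That of Mfhas1, beside a block of 80 dense positions at 1.73%, had 95.2% of 104 calls and 98% of 102 calls, and its positions from 503 bp outward were all at 83.3% or more. The third, on chromosome 8 with no gene end within 10 kb, had 64.2% of 123 calls and 67% of 115 calls. Single shores at like distances thus had levels from 0% to near 100%. At 22 blocks both sides had at least 20 calls per arm, and their DMSO levels differed by a median of 11.9 points; in 7 of them the sides were 20 points or more apart, and in 10 both were under 20%.

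A lower depth of 20 calls and 8 cells per arm, taken after seeing that few shores passed the first rule, gave 767 shores. Of these 363 were lower with AG-881, 223 higher and 181 equal, with a median of 0 points and a mean of -1.99 points. Differences of at least 10 points downward were found in 13.3% and upward in 5.08%, without regard to pools. These shares have no counterpart here from dense blocks or windows at this depth. Depths of 30 and 40 calls were looked at as well, with 342 and 134 shores, and gave 50.3% and 53.7% lower and 28.7% and 29.1% higher. At these depths 12.6% and 8.96% were lower by at least 10 points, and 4.09% and 5.22% higher. Shores with a mean of both arms from 20 to 80% were mostly lower: 142 of 218 against 75 higher, with a median of -4.36 points and 66 lower by at least 10 points against 24 higher. Of the 490 shores under 20%, 191 were lower, 121 higher and 178 equal, and of the 59 at 80% or more, 30 were lower and 27 higher.

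Gene lists for glial and neural lineages, Notch, development, DNA methylation and housekeeping had few shores at 20 calls. The lists of neural progenitor (20 genes), neuron (18 genes) and Notch pathway genes (30 genes) had 0 measured shores. Among 20 oligodendrocyte precursor genes the shore of Sox4, a transcription factor of progenitor cells, was the only one measured (20% of 70 calls and 32.2% of 59 calls). Among 20 mature oligodendrocyte genes it was that of Fa2h, which makes hydroxylated myelin lipids (40% and 41.4%). Among 20 astrocyte genes 3 shores were measured, 2 lower and 1 equal (median -7.57 points): Slc1a2, the glial glutamate transporter, had 32.3% and 47.2%, Glul, glutamine synthetase, 7.81% and 15.4%, and Aldoc 0% in both, which allows up to 7.32% and 10%. Their intervals of the difference all included 0. With so few shores these lists show nothing of their own beside the 767.

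Of 80 developmental transcription factor genes 9 had a measured shore, 6 lower and 3 higher (median -4.55 points), with a median DMSO level of 52.6%. By at least 10 points 2 were lower and 1 higher, beside the 13.3% and 5.08% of all shores at this depth. The homeobox genes Uncx (34.3% and 52.6%) and Nkx2-5 (78.8% and 90%) had the largest differences downward, and the homeobox gene Irx3 (23.5% and 11.5%) upward; Pitx1 had 33.7% and 36.1%. None of the 9 intervals lay wholly on 1 side of 0. Of 41 genes for DNA methylation or IDH metabolism 4 had a shore, with 1 lower, 2 higher and 1 equal (median 0.458 points). Dnmt3b, a de novo DNA methyltransferase, had 12.5% of 24 calls from 8 cells and 3.33% of 30 calls from 10 cells. Egln1, an oxygen-sensing dioxygenase, had 5.26% and 4.35%. The intervals of the difference of all 4 included 0 (-7.85 to 29.3 for Dnmt3b). In the list of 42 housekeeping genes, the shore of the splicing factor gene Sf3b1 had 0% of 34 calls, which allows up to 8.82%, and 13% of 23 calls, with an interval of the difference that included 0.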

How the data were processed

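Methylation was measured by scRRBS in 67 AG-881 and 74 DMSO cells. The authors deposited, for each position and cell, a methylated fraction of 0, 0.5 or 1, and the read depth behind a fraction is unknown. The build is mm10, per the submitters' processing notes. For the aligner and caller, names were not given in the sources used here. All 141 columns were used. Column names gave arm, pool and a barcode but no well, so cells were assigned to arms and pools only. Values of 0.5 (0.412% of 12325314, and 0.539% of those at shore positions) were left out, and both strands of a CpG count as positions of their own. Pools share barcodes: 24 of 24 different barcodes occur in more than 1 pool, and cells were told apart by pool and barcode. Incomplete bisulfite conversion would raise every level.

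Neighbours and distances were counted from table positions on chromosomes 1 to 19, since no genome was used. Calls were pooled over cells and given with exact Clopper-Pearson 95% intervals. Intervals of differences join those of both arms (Newcombe), and a level of 0 comes with an upper limit of 3 calls of the total. No test between the arms was run, since each arm is 1 culture. Shores took the name of the gene or genes with an end within 1 kb of the block, else of the nearest end within 10 kb (RefSeq, GRCm38.p6). Planned names were the 10 largest called differences each way at 100 calls and 15 cells per arm, and the largest in each of 9 gene lists, also each way. Worked examples needed 40 calls per arm in each of 4 equal stretches of the shore, which 0 shores met. The members, lists and comparisons were chosen with earlier results of these data known. Chosen after these shore values had been seen were the grouping by block size and by transcription start, the near and far levels of single cells, the calls of 1 cell in 1 shore, the comparison of both sides of a block, the depth of 20 calls and 8 cells, and the shores shown by position. A shore of the housekeeping list is not reported here. The pooling and intervals were tested on simulated data in which all calls were independent. Whether the intervals hold for calls that share a cell, shore or pool was not tested. Python 3.11.15, numpy 2.4.6, scipy 1.17.1 and matplotlib 3.10.9 were used.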

Additional observations from a re-analysis of the deposited data

Results flagged for a closer look

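In some groups of 4 pools, 1 pool lay far from the other three (Dixon's criterion at the 95% level). Of 152 groups examined 12 had such a pool, and chance gives about 1 in 20. AG-881 pool 1 was the lowest at 400 to 600 bp (17.9%, the others 18.8% to 18.9%) and at 200 to 600 bp next to blocks of 10 to 50% (37.4%, the others 45.8% to 46.7%). AG-881 pool 3 was the highest at 1000 to 1500 bp next to blocks under 10% (42.2%, the others 37.7% to 38.2%) and over all downstream shores (24.2%, the others 21.3% to 21.8%). DMSO pool 7 was the highest at 1200 to 1400 bp (55.2%, the others 47.1% to 48.2%) and at 200 to 600 bp next to blocks under 10% (9.37%, the others 9.12% to 9.16%). It was the lowest at 200 to 600 bp next to blocks of 10 to 50% (41.3%, the others 45.9% to 46.5%). DMSO pool 6 was the highest at 1500 to 2000 bp next to blocks under 10% (62.3%, the others 59.3% to 59.4%) and at shore positions with 4 positions within 100 bp (22.8%, the others 21.9% to 22%). DMSO pool 8 was the highest upstream of starts at 1500 to 2000 bp (56.5%, the others 52.5% to 52.6%) and at 600 to 1000 bp of blocks without a start (34.8%, the others 32.2% to 32.5%). DMSO pool 5 was the highest upstream of starts at 600 to 1000 bp (28.7%, the others 25% to 25.5%). The groups share cells and positions, so these cases are not independent.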

How the results depend on the processing

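The differences over the whole, near and far shore and near minus far kept their direction in the 19 alternatives run for each. Near minus far was read in DMSO only, so leaving out an AG-881 pool could not change it. Signs of subgroups that turned with 1 pool left out stand with their values above. With AG-881 and DMSO the level was 30.2% and 31.4% at positions called in 2 cells per arm, 16.3% and 18.3% at 10 cells, 27.3% and 29.1% with every position weighted alike, and 23.3% and 24.9% with adjacent positions merged. It was 28.5% and 30.1% with a dense threshold of 15 positions, 22.1% and 23.2% with 30, and 31.5% and 33.6% with at most 2 positions within 100 bp; the DMSO mean per cell was 26.4%. The AG-881 level was 24.8% without pools 3 and 7 and between 24.8% and 25.6% with 1 pool left out. The difference between arms was -1.01 points with a dense threshold of 30 and between -2.12 and -1.31 points with 1 pool left out. It moved in 2 of 19 alternatives. Near minus far in DMSO (-32.9 points) was -34.1 at 2 cells, -24.1 at 10 cells, -34.6 with equal weights, -31.2 merged, and -34.0 and -30.3 with dense thresholds of 15 and 30. The near difference was -0.847 points with a dense threshold of 30 and -2.27 with at most 2 positions within 100 bp, and the far difference was -1.23 at 2 cells and -3.95 at 10 cells. The number of shores called lower (1) was 3 at 2 cells and with a dense threshold of 15. It was 0 at 10 cells, with a dense threshold of 30, with at most 2 positions within 100 bp and without pools 3 and 7. It was 0 to 1 over all single pools, with 0 without pool 4, 5, 6, 7 or 8. Without any of those pools the called shore of Rnf44 had fewer than 50 calls in 1 arm and was not judged. The same held without pools 3 and 7 together. At 10 cells it kept only its position at 780 bp, with 10 calls in each arm, and was not judged either. The cause of the losses with a dense threshold of 30 and with at most 2 positions within 100 bp was not tested. Shores called higher stayed at 0 in 17 of 17 alternatives. Between 2 and 85 shores had enough pools in these, beside 52 in the main setting. Where few shores could be called, a count of 0 says little. At 40 calls in place of 20, the share of shores lower by at least 10 points was 8.96%. No paired analysis was possible because no number in the labels pairs cells of the arms, and no test between the arms was run. Depth limits single shores: 60 of 3553 had 50 calls and 10 cells per arm.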
